A study of Mus musculus with 10 samples.

Results

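The interleukin 1 (IL-1), IL-18 and IL-33 genes were examined in Tregs (regulatory T cells, a Foxp3-expressing CD4+ subset that restrains immune responses) sorted from mouse colon. The 9 members were taken by gene name from a deposited table of 54532 genes. They are the ligand genes Il1b and Il18, the antagonist gene Il1rn, and the receptor genes Il1r1, Il1r2, Il1rap, Il1rl1, Il18r1 and Il18rap. All 9 passed the filter on low counts and were tested. The study set 5 libraries labelled Tumor against 5 labelled WT. Smart-seq2, which amplifies full-length cDNA from little RNA, was used for all 10. The Tumor cells came from colon tumours of mice that carried the Apc Min/+ genotype and Foxp3 DTR. The WT cells came from Foxp3 DTR mice without the Apc allele. Both groups therefore carried the Foxp3 DTR allele, which places a diphtheria toxin receptor under the Foxp3 gene, and both were male C57BL/6 mice aged 16 weeks. Apc Min is a truncating allele of an inhibitor of Wnt signalling that leads to intestinal tumours, so the tumour and the genotype came together and cannot be told apart. The sort gate was CD45+ CD3+ CD4+ CD25+ GFP+. The labels do not state that the 5 samples of a group were separate animals, and p-values therefore reflect sample-to-sample spread that may be technical.

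IL-1 beta binds the receptor chain encoded by Il1r1, which then recruits the accessory chain encoded by Il1rap and signals through MyD88 to NF-kappaB. Il1r2 encodes a decoy receptor that binds IL-1 without signalling, and Il1rn encodes an antagonist that occupies Il1r1. IL-33 binds ST2, the product of Il1rl1, which shares the accessory chain, and IL-18 binds a pair of chains encoded by Il18r1 and Il18rap. Tregs of non-lymphoid tissue are known for ST2 expression, and decoy receptor expression has been described for Tregs of tumours.

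The libraries held 3054435 to 7747699 counts in Tumor and 1676229 to 8412887 counts in WT. Levels are given as CPM, the counts of a gene relative to all counts of its library after scaling by the trimmed mean of M values (TMM). Foxp3 and the T cell genes were detected in every library. Foxp3 stood at 36.9 to 148 CPM in Tumor and 3.87 to 39.7 CPM in WT, which overlap, and was not called (edgeR adjusted p = 0.0560). Il2ra, the CD25 gene, stood at 355 to 889 CPM in Tumor and 9.83 to 169 CPM in WT and was called higher (edgeR adjusted p = 0.0436). Of 10 Treg genes, Foxp3 and Il2ra among them, 5 were called higher and 0 lower, against 1.37% and 0.219% of all tested genes. Their sum was 3697 to 8577 CPM in Tumor and 214 to 1277 CPM in WT. The 14 T cell genes summed to 4329 to 8415 CPM in Tumor and 223 to 1526 CPM in WT, and 8 of the 14 were called higher in Tumor. Libraries within WT also stood apart. In WT replicates 1 and 2 the 16 epithelial genes summed to 36436 and 41768 CPM, against 158 to 207 CPM in WT replicates 3 to 5. In WT replicates 3 to 5, 9.92%, 22.3% and 26.5% of counts fell on the repeat-rich gene model Gm10800, against 0.844% to 5.77% in the other libraries. Members are therefore also described without the libraries of each kind, and with each library scaled to its 14 T cell genes (pan-T scaling). Under that scaling the median gene had a log2 fold change of -3.71, against -0.20 with TMM, and 91.8% of tested genes were called lower in Tumor and 0.0841% higher.

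The promoters of 4 members are shown because Il1b, Il1r2, Il1rl1 and Il18rap had the highest fold changes of the family. Each sequence is the 250 bases before a start site in RefSeq (GRCm38.p6), read 5′ to 3′ on the strand of the gene. Il1rl1 is shown at both of its RefSeq start sites, and the Il1r2 start site lies 12014 bases inside the deposited gene interval. Capitals mark GATAA (the core of GATA factor sites), GTAAACA (a forkhead sequence) and TATAAA, on either strand.
Il1r2, chr1:40085843-40086092, plus strand: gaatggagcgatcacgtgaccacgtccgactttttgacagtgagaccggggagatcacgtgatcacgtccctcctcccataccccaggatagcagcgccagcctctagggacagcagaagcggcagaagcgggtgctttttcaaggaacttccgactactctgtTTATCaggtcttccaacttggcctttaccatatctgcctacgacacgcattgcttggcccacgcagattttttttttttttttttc
Il1rl1 distal start, chr1:40429320-40429569, plus strand: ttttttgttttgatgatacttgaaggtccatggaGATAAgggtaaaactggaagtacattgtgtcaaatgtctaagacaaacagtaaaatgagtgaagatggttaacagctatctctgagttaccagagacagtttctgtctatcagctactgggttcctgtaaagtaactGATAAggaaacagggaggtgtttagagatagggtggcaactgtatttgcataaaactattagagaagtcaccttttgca
Il1rl1 proximal start, chr1:40439379-40439628, plus strand: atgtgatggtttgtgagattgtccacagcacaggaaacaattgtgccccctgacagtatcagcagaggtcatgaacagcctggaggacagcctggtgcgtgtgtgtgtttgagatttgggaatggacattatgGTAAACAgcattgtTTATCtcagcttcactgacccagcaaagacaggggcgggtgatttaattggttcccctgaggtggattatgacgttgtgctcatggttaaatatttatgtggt
Il18rap, chr1:40515112-40515361, plus strand: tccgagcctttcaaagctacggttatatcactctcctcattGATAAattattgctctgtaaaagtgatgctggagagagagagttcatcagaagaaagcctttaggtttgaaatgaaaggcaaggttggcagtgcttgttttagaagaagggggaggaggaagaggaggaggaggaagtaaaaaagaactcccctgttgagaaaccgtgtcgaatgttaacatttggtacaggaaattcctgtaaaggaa
Il1b, chr2:129371140-129371389, minus strand: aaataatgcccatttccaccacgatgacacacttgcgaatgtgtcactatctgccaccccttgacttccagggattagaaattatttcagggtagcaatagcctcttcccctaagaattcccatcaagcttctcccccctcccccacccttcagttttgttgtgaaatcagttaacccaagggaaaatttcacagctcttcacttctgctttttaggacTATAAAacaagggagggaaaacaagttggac
In the distal Il1rl1 window GATAA begins at positions -216 and -79 from the start site. The proximal Il1rl1 window holds it at -103, on the opposite strand, beside GTAAACA at -117, without overlap. Il1r2 has 1 GATAA at -86, on the opposite strand, and Il18rap has 1 at -209. All 9 members have entries in the table, with 15 windows in all, and 4 of the 15 hold GATAA, against 22.6% of all 32851 windows of the same length. GTAAACA is found in 3.17% of those windows. The Il1b window has TATAAA at -31, a sequence found in 12.4% of windows. TGANTCA (the AP-1 sequence, 6.75% of windows) and the kappaB consensus (7.25%) were searched on both strands as well. Neither is in the 5 windows shown. TGANTCA is in 1 window of Il1rn, and the kappaB consensus in 1 window of Il1r1. These matches are descriptions of letters and were not tested as binding sites.

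Per kilobase of gene, the decoy receptor and IL-1 beta were the most abundant family transcripts in Tumor. Il1r2 stood at 189 ± 66.4 CPM per kilobase (SD, n = 5) and Il1b at 166 ± 54.7, and their ranges overlapped. Il1rl1 followed at 34.1 ± 10.8, below Il1b in every Tumor library. Il18 (22.2 ± 12.9), Il1rn (16.3 ± 4.24), Il18r1 (16.0 ± 7.02) and Il18rap (14.4 ± 4.39) overlapped each other. Il1r1, the signalling IL-1 receptor, was lower at 3.98 ± 2.21, and Il1rap was lowest at 1.71 ± 1.15.

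These last levels lie near a floor that the libraries themselves provide. The 1979 olfactory and vomeronasal receptor genes, a class of sensory neurons, as one sum gave 1.06 to 2.03 CPM per kilobase in Tumor and 1.22 to 4.199 in WT. Il1rap exceeded that floor in 3 of 5 Tumor libraries and in 3 of 5 WT libraries, with a median ratio of 1.03 in Tumor and 1.12 in WT. In Tumor, each member other than Il1rap exceeded it in all 5 libraries, from a median of 1.79 times for Il1r1 to 111 times for Il1b. In WT the highest median ratio among the 9 members was that of Il1r2, at 2.06. Il1rl1 exceeded the floor in 2 of 5 WT libraries and Il18rap in 2 of 5.

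**Figure D1:**
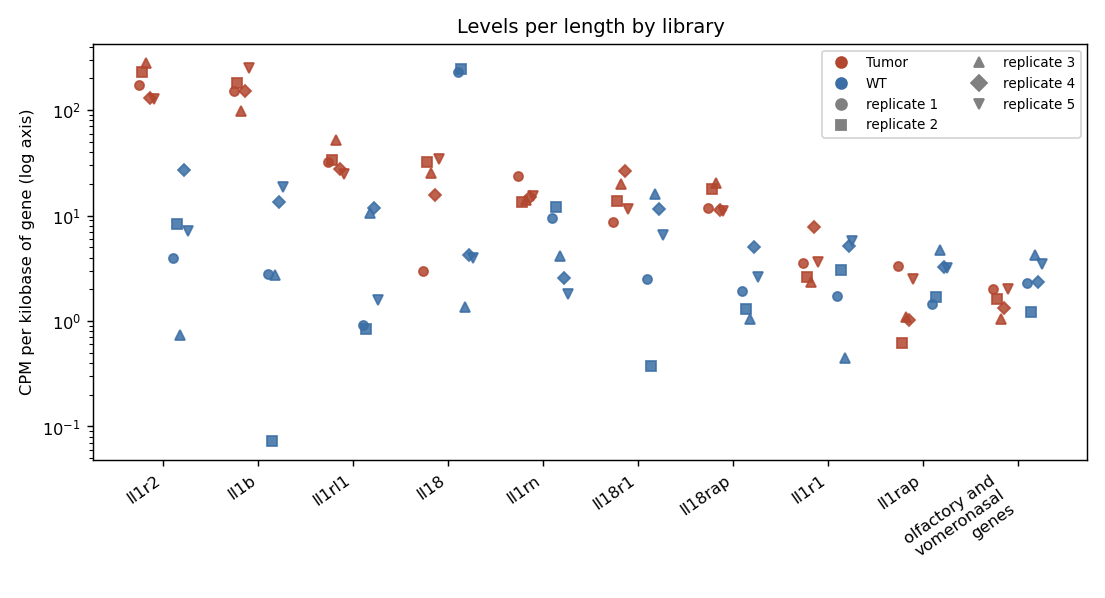
Level of each member per kilobase of gene in every library, in CPM per kilobase on a log axis, with Tumor left of WT and 1 symbol per replicate, beside the summed olfactory and vomeronasal receptor genes. Il1r2 and Il1b stand between 98.4 and 281 in Tumor, while Il1rap lies at 0.620 to 3.31 beside the receptor genes at 1.06 to 2.03.

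Setting Tumor against WT asks what distinguishes Tregs in colon tumours of Apc Min/+ mice from Tregs in colon without the allele. Of the 9 members 3 rose, Il1b, Il1r2 and Il18rap, and 0 fell (edgeR quasi-likelihood test, p adjusted over 21414 genes and called below 0.05). Over all tested genes 1.59% were called, 1.37% higher and 0.219% lower. At an unadjusted p below 0.05 there were 5 members, all higher, where 7.75% of tested genes were higher and 8.31% lower. DESeq2 called 4 members higher and 0 lower, against 3.49% and 4.94% of the genes for which it gave an adjusted p. Limma voom called 4 higher and 0 lower, against 2.12% and 0.112% of tested genes. The groups did not overlap for 5 members, Il1b, Il1rn, Il1r2, Il1rl1 and Il18rap, all with Tumor above WT, a pattern seen in 4.38% of tested genes (1.57% in the other direction). The median log2 fold change was 1.43 over the 9 members and -0.20 over all tested genes. In bulk RNA, fewer cells of a type and less RNA per cell cannot be told apart.

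**Figure D2:**
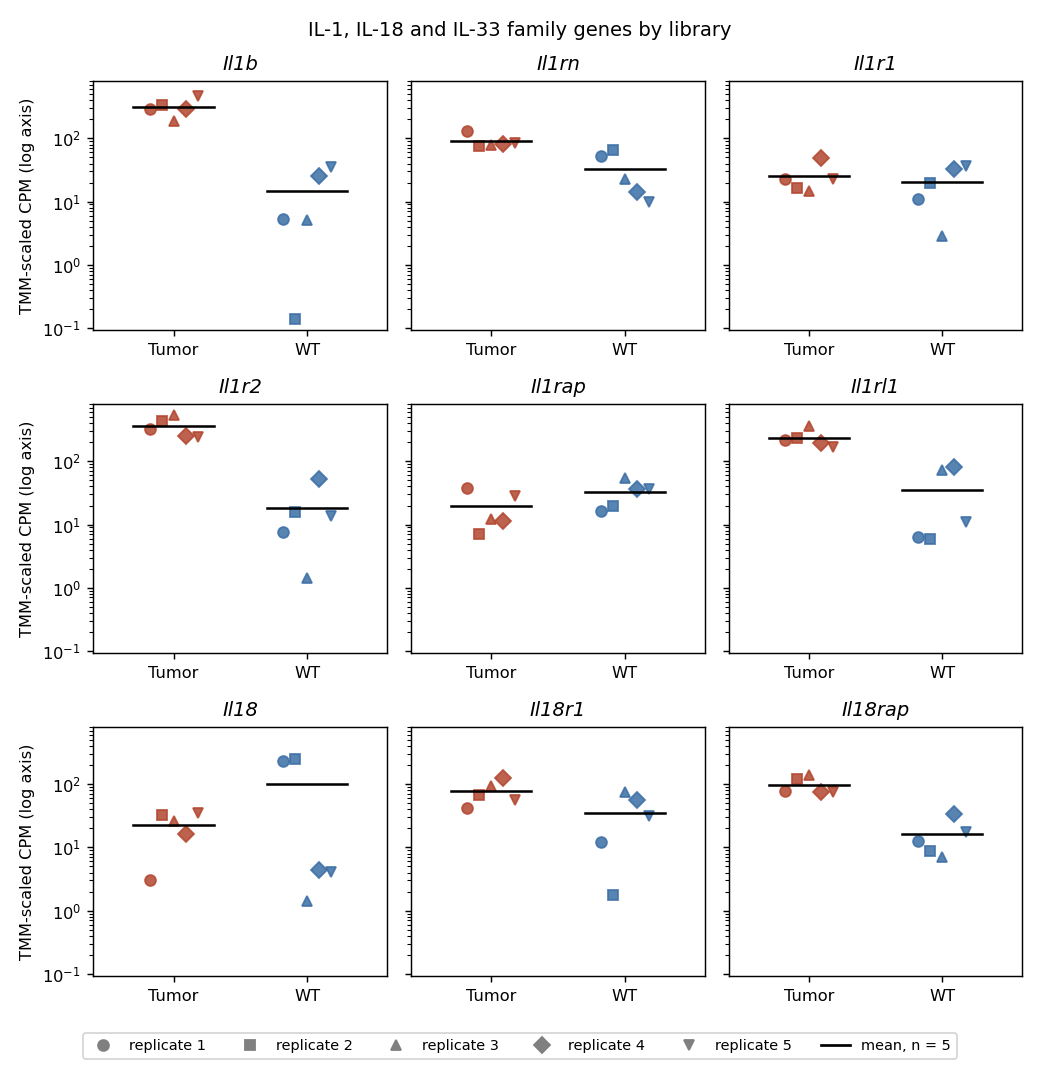
TMM-scaled CPM of the 9 members in every library, on a shared log axis, with Tumor left of WT, 1 symbol per replicate and a line at the mean of 5. Il1b, Il1rn, Il1r2, Il1rl1 and Il18rap have every Tumor library above every WT library, and Il18 has WT replicates 1 and 2 at 237 and 252 CPM above all others.

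Il1b, the IL-1 beta gene (ENSMUSG00000027398, chromosome 2, 129364570 to 129371139, minus strand, mm10), stood at 291, 341, 188, 288 and 474 CPM in Tumor replicates 1 to 5, against 5.38, 0.138, 5.16, 25.8 and 35.8 CPM in WT replicates 1 to 5. Tumor replicate 5 was highest, and the 0.138 CPM of WT replicate 2 was 1 read. The log2 fold change was 4.46 ± 0.95 (SE, edgeR adjusted p = 0.0226), with 1.09 ± 0.91 after pan-T scaling, which did not pass. It was 3.86 ± 0.72 without WT replicates 1 and 2 and 7.01 ± 0.98 without WT replicates 3 to 5, and passed in both. Macrophages and monocytes make IL-1 beta, and of 11 tested genes of these cells 5 were called higher in Tumor, Lyz2, C1qa, C1qb, C1qc and Apoe. The others, among them Adgre1 and Mrc1, did not pass. The 12 genes of the list summed to 1463 to 6241 CPM in Tumor and 83.0 to 184 CPM in WT, with 0 of 12 at 0 in any Tumor library and C1qa and Apoe at 0 in WT replicate 3. The 2 Tumor libraries with the most Il1b, replicates 5 and 2, also had the highest macrophage sums, 5560 and 6241 CPM. Tumor replicate 1, next in Il1b at 291 CPM, had the lowest Tumor sum, 1463 CPM. In WT the order was reversed at both ends. WT replicate 5, with the most Il1b, had the lowest sum, 83.0 CPM, and WT replicate 2, with the least, had the highest, 184 CPM. The 10 neutrophil genes summed to 62.1 to 1647 CPM in Tumor, highest in replicate 5, and 82.8 to 141 CPM in WT. Among them Retnlg and Ngp were each at 0 in 2 Tumor libraries and S100a9 in 2 WT libraries. The part of these cells in the Il1b result was not tested. The call was lost without any 1 of Tumor replicates 1 to 4 or WT replicate 1, with the log2 fold change at 4.14 to 5.13 over the 10 fits that each left out 1 library.

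Il1rn, the IL-1 receptor antagonist gene (ENSMUSG00000026981, chromosome 2, 24336853 to 24351494, plus strand), stood at 132, 74.6, 77.9, 82.2 and 84.4 CPM in Tumor replicates 1 to 5, against 52.7, 66.6, 23.0, 14.2 and 9.98 CPM in WT replicates 1 to 5. The groups did not overlap, yet WT replicate 2 lay close under the lowest Tumor library. Its log2 fold change of 1.43 ± 0.56 did not pass (edgeR adjusted p = 0.217). It was 2.55 ± 0.57 and passed without WT replicates 1 and 2, the libraries with epithelial RNA. After pan-T scaling it turned to -2.29 ± 0.84 and was called lower, as were 91.8% of tested genes. Set against the ligand within each library, per kilobase, Il1rn over Il1b was 0.0614 to 0.155 in Tumor and 0.0959 to 166 in WT. These ranges overlap, and the value of 166 rests on 1 Il1b read.

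Il1r2, the decoy receptor gene (ENSMUSG00000026073, chromosome 1, 40074079 to 40125231, plus strand), stood at 329, 442, 535, 249 and 245 CPM in Tumor replicates 1 to 5, against 7.49, 16.0, 1.41, 51.7 and 13.6 CPM in WT replicates 1 to 5. The lowest Tumor library lay well above the highest WT library, replicate 4, which also had the highest T cell gene sum of WT, 1526 CPM. The log2 fold change was 4.32 ± 0.82 (edgeR adjusted p = 0.0142) and stayed positive, at 1.21 to 5.24, over the 22 alternatives. It passed in 17 of them (adjusted p = 1.02e-06 to 0.409) and not with pan-T scaling (1.21 ± 0.77). The call was lost without any 1 of Tumor replicates 2 and 3 or WT replicate 1, at a log2 fold change of 4.05 to 5.24 over the 10 fits that each left out 1 library. Relative to the geometric mean of the 14 T cell genes, Il1r2 was at -0.48 to 0.15 log2 units in Tumor and -4.98 to -0.72 in WT. On that measure the lowest Tumor library exceeded the highest WT library, which was so for 0.0934% of tested genes and for no other member. Of 11 tested macrophage and monocyte genes, 4 were called higher and 3 lower after pan-T scaling. The part of these or other cells in the Il1r2 values was not tested. The gene models Gm16894 and Gm37347 lie within the Il1r2 interval, and without a stated strand setting reads of Il1r2 and of the antisense Gm16894 cannot be told apart. They averaged 6.93 and 38.4 CPM in Tumor and 2.28 and 5.57 CPM in WT.

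Il1r1, the signalling receptor gene (ENSMUSG00000026072, chromosome 1, 40225080 to 40317257, plus strand), stood at 22.8, 16.6, 14.8, 49.7 and 22.9 CPM in Tumor replicates 1 to 5, against 10.998, 19.3, 2.82, 32.8 and 36.7 CPM in WT replicates 1 to 5. The groups overlapped, with Tumor replicate 4 highest and WT replicate 3 lowest of all. At 0.31 ± 0.65 the log2 fold change did not pass (edgeR adjusted p = 0.846). After pan-T scaling it turned to -3.12 ± 0.94 and was called lower, as were 91.8% of tested genes, with the median gene at -3.71. The ratio of decoy to signalling receptor does not depend on how libraries are scaled. Per kilobase, Il1r2 over Il1r1 was 48.2, 89.0, 121, 16.7 and 35.6 in Tumor replicates 1 to 5, against 2.27, 2.76, 1.67, 5.26 and 1.24 in WT replicates 1 to 5. Every Tumor ratio exceeded every WT ratio. The ratio is a description. In WT the median ratio to the floor set by the olfactory and vomeronasal genes was 1.67 for Il1r1 and 2.06 for Il1r2. Il1r2 nevertheless stood well above that floor in 2 WT libraries. It was at 8.40 CPM per kilobase against 1.22 in WT replicate 2, and 27.1 against 2.32 in WT replicate 4.

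Il1rap, the accessory chain gene shared by the IL-1 and IL-33 receptors (ENSMUSG00000022514, chromosome 16, 26581704 to 26730117, plus strand), stood at 37.7, 7.04, 12.3, 11.5 and 28.7 CPM in Tumor replicates 1 to 5, against 16.6, 19.3, 53.5, 37.1 and 35.8 CPM in WT replicates 1 to 5. The groups overlapped. At -0.73 ± 0.60 the log2 fold change did not pass (edgeR adjusted p = 0.554), and without WT replicates 3 to 5 it was 0.11 ± 0.79. After pan-T scaling it was -3.90 ± 0.88 and called lower, as were 91.8% of tested genes. Relative to the T cell genes every Tumor library lay below every WT library, as for 46.8% of tested genes. Its table length of 11360 bases is the longest of the family. Within WT the 3 libraries with the most Gm10800 reads also had the most Il1rap, while Tumor replicate 1 lay between them, and the part of that background in Il1rap was not tested. After a background in proportion to gene length was subtracted, its log2 fold change was -0.67 ± 1.79.

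Il1rl1, the ST2 gene (ENSMUSG00000026069, chromosome 1, 40429570 to 40465415, plus strand), stood at 221, 233, 361, 192 and 169.5 CPM in Tumor replicates 1 to 5, against 6.32, 5.80, 73.7, 82.3 and 10.9 CPM in WT replicates 1 to 5. The groups did not overlap. WT was divided, with replicates 3 and 4 well above the other 3. Il1rl1 had a log2 fold change of 2.72 ± 0.77, which did not pass (edgeR adjusted p = 0.0859). It passed with DESeq2 (2.43 ± 0.74), with limma voom (3.87 ± 0.72), with no filter (2.87 ± 0.71) and without WT replicates 3 to 5 (5.28 ± 0.60). Over its 22 alternatives adjusted p ran from 2.28e-06 to 0.991, the highest after pan-T scaling, where the log2 fold change was 0.0087 ± 0.72. Relative to the T cell genes, Il1rl1 was at -0.85 to -0.55 log2 units in Tumor and -2.61 to 0.31 in WT, so the groups overlapped there and the Tumor libraries varied little. Gene counts sum the membrane form and the soluble form of ST2.

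Mast cells and type 2 innate lymphoid cells also express ST2, and the part of these cells in the Il1rl1 values was not tested. Of 12 mast cell and basophil genes 8 were tested, and of 6 type 2 innate lymphoid genes 3, and edgeR, DESeq2 and limma voom called 0 of either list, with 0 at an unadjusted p below 0.05. The 12 mast cell and basophil genes summed to 71.9 to 212 CPM in Tumor and 86.9 to 303 CPM in WT, with Cpa3 at 0 in 2 Tumor libraries. The highest sum was in WT replicate 3. The 6 type 2 innate lymphoid genes summed to 38.0 to 68.6 CPM in Tumor and 14.5 to 65.8 CPM in WT, with Il5 at 0 in 2 Tumor libraries and 1 WT library. Per kilobase, Il1rl1 over its accessory chain Il1rap was 9.67, 54.6, 48.2, 27.4 and 9.74 in Tumor replicates 1 to 5, against 0.627, 0.494, 2.27, 3.65 and 0.501 in WT replicates 1 to 5. Every Tumor ratio exceeded every WT ratio, with Il1rap itself near the floor in both groups.

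**Figure D3:**
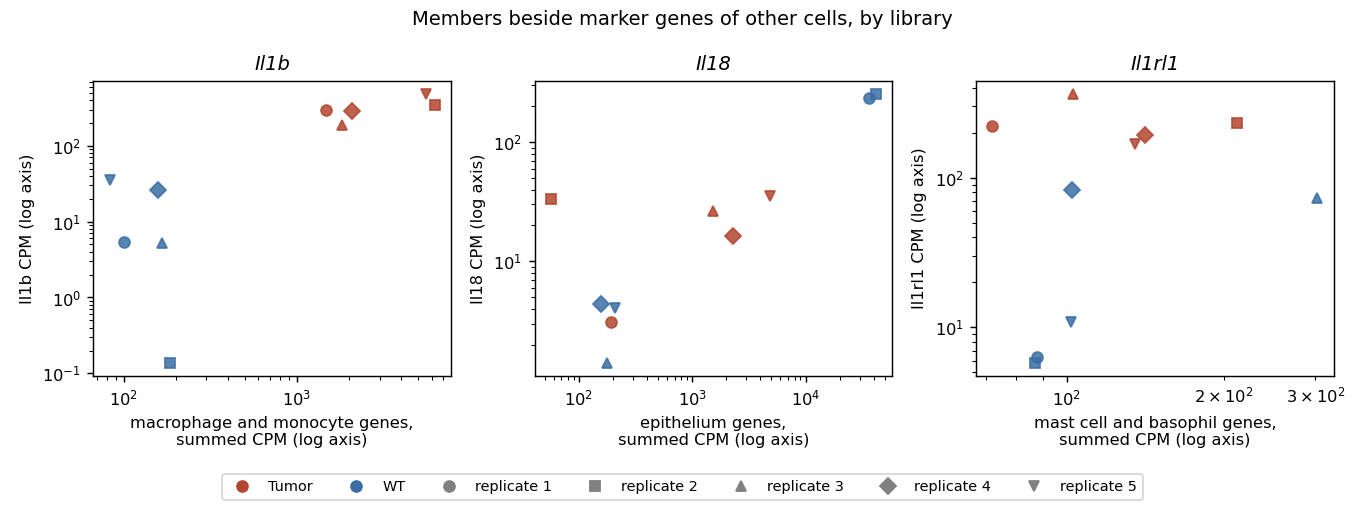
CPM of Il1b, Il18 and Il1rl1 in each library, plotted on log axes against the summed CPM of macrophage and monocyte, epithelial, and mast cell and basophil genes, with Tumor in red, WT in blue and 1 symbol per replicate. Il18 is highest in WT replicates 1 and 2, which have the highest epithelial sums. The mast cell and basophil sums are 71.9 to 212 CPM in Tumor and 86.9 to 303 CPM in WT, and the part of these cells in Il1rl1 was not tested.

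Il18, the IL-18 gene, which intestinal epithelium makes in health (ENSMUSG00000039217, chromosome 9, 50554827 to 50581840, plus strand), stood at 3.09, 33.2, 26.3, 16.3 and 35.6 CPM in Tumor replicates 1 to 5, against 237, 252, 1.41, 4.37 and 4.08 CPM in WT replicates 1 to 5. WT replicates 1 and 2 were far above all other libraries, and WT replicates 3 to 5 were below all Tumor libraries but replicate 1. The same 2 WT libraries had epithelial sums of 36436 and 41768 CPM, against 56.8 to 4894 CPM in Tumor. In Tumor replicate 2, which had 33.2 CPM of Il18, 7 of the 16 epithelial genes were at 0, Cdh1 and Krt20 among them. The log2 fold change of -2.13 ± 1.16 did not pass (edgeR adjusted p = 0.378). It turned to 2.79 ± 1.01 without WT replicates 1 and 2, not passing, and was -3.43 ± 0.54, called lower, without WT replicates 3 to 5. The part of epithelial RNA in these values was not tested.

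Il18r1, the IL-18 binding chain gene (ENSMUSG00000026070, chromosome 1, 40465552 to 40500854, plus strand), stood at 42.1, 66.7, 95.3, 127 and 55.5 CPM in Tumor replicates 1 to 5, against 12.2, 1.80, 76.5, 55.7 and 31.3 CPM in WT replicates 1 to 5. The groups overlapped through WT replicates 3 and 4, the libraries that were also high in Il1rl1. At 1.13 ± 0.69 the log2 fold change did not pass (edgeR adjusted p = 0.425). It was 3.58 ± 0.70 and passed without WT replicates 3 to 5. After pan-T scaling it turned to -1.95 ± 0.82 and was called lower, as were 91.8% of tested genes. Il18r1 starts 136 bases past the end of Il1rl1 on the same strand, so reads that run past Il1rl1 cannot be told apart from reads of Il18r1 at gene level. Per kilobase, Il1rl1 over Il18r1 was 1.06 to 3.66 in Tumor and 0.243 to 2.26 in WT, which overlap.

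Il18rap, the IL-18 receptor accessory chain gene (ENSMUSG00000026068, chromosome 1, 40515362 to 40551705, plus strand), stood at 79.2, 121, 138, 75.8 and 74.1 CPM in Tumor replicates 1 to 5, against 12.9, 8.71, 7.04, 34.2 and 17.7 CPM in WT replicates 1 to 5. The groups did not overlap, and the Tumor libraries lay closer together than those of most other members. The log2 fold change was 2.60 ± 0.55 (edgeR adjusted p = 0.0211), and it was -0.83 ± 0.81, not passing, after pan-T scaling. It was 2.31 ± 0.61 without WT replicates 1 and 2 and 3.20 ± 0.57 without WT replicates 3 to 5, and passed in both. The call was lost without any 1 of Tumor replicates 1 to 4 or WT replicate 1, with the log2 fold change at 2.44 to 3.11 over the 10 fits that each left out 1 library. Il18rap over Il18r1 per kilobase was 0.427 to 1.34 in Tumor and 0.0657 to 3.46 in WT, which overlap.

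**Figure D4:**
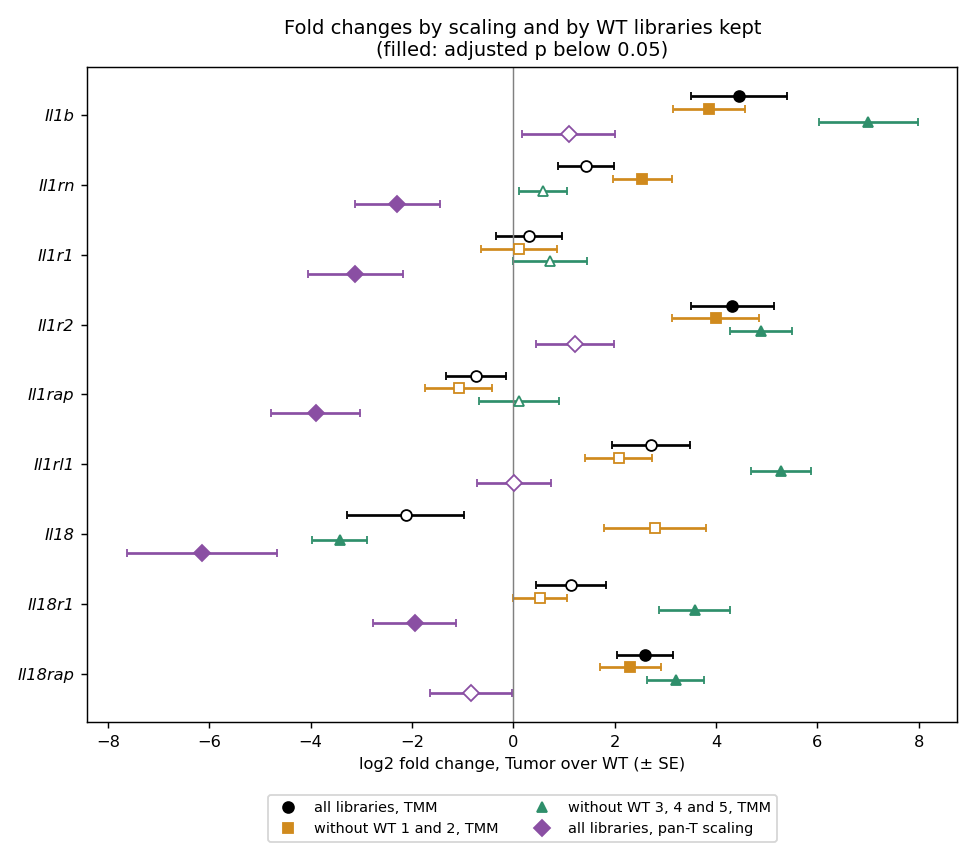
Log2 fold change (Tumor over WT) of each member with its SE, from all libraries, without WT replicates 1 and 2, without WT replicates 3 to 5, and after pan-T scaling, with filled symbols for adjusted p below 0.05. Il1r2 and Il1b are above 0 in all 4 fits shown, Il18 is at -2.13, 2.79, -3.43 and -6.15, and pan-T scaling moves every member down.

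The 5 receptor members on chromosome 1 lie in 1 cluster of 478 kb, in the order Il1r2, Il1r1, Il1rl1, Il18r1 and Il18rap, with Il1rl2, the IL-36 receptor gene, between Il1r1 and Il1rl1. All are on the plus strand. Fold changes within the cluster ran from -0.39 to 4.32 on the log2 scale, and differences between its genes were not tested. Il1r2 (4.32 ± 0.82) and Il18rap (2.60 ± 0.55), at its ends, were called higher. Il1rl1 (2.72 ± 0.77), Il18r1 (1.13 ± 0.69), Il1r1 (0.31 ± 0.65) and Il1rl2 (-0.39 ± 0.84, edgeR adjusted p = 0.847) did not pass. Coding neighbours within 300 kb that were tested did not pass either. They were the kinase gene Map4k4 at 0.39 ± 0.48, the sodium-proton exchanger genes Slc9a4 at -0.50 ± 1.11 and Slc9a2 at -1.94 ± 0.87, Mfsd9 at -2.14 ± 1.18 and Tmem182 at -0.19 ± 0.93 (adjusted p = 0.279 to 0.934). Per length, mean levels of Il1rl2, Slc9a4, Mfsd9 and Tmem182 lie near or below the olfactory and vomeronasal floor in both groups. Slc9a2 lies near it in Tumor, and Map4k4 lies above it in both groups. For genes at that floor, the lack of a call cannot show that expression was unchanged.

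**Figure D5:**
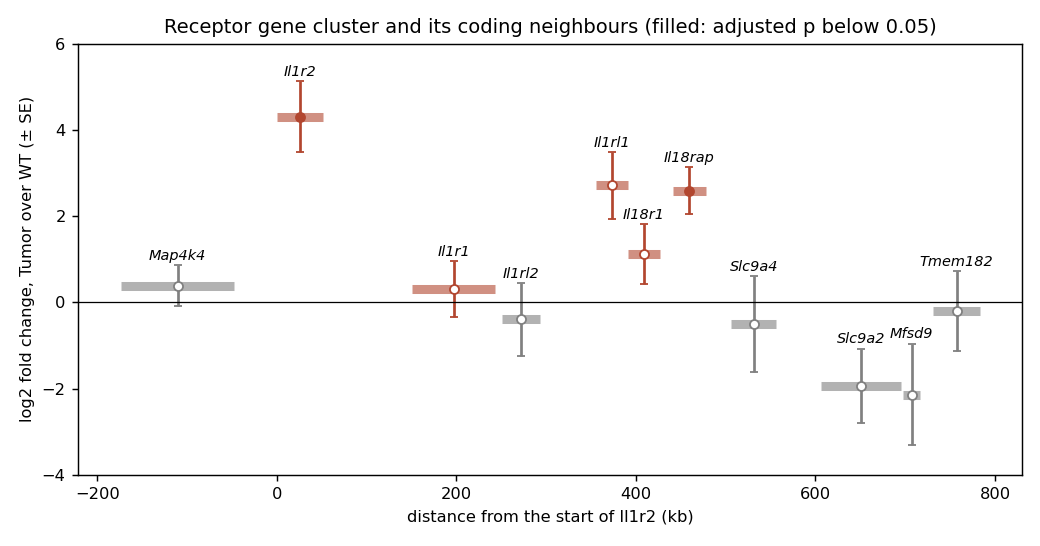
Log2 fold change (Tumor over WT, with SE) of the tested coding genes of the chromosome 1 cluster and its neighbours, placed by distance in kb from the start of Il1r2, with members in red, other genes in grey, bars for gene extents and filled points for adjusted p below 0.05. Il1r2 (4.32) and Il18rap (2.60) are filled, and the neighbours outside the cluster lie between -2.14 and 0.39. Per length, Il1rl2, Slc9a4, Mfsd9 and Tmem182 lie near or below the olfactory and vomeronasal floor in both groups.

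Other genes of the pathway were counted in 6 lists, in which 53 of 58 genes were tested, 6 rose and 0 fell. Over all tested genes 1.37% were called higher and 0.219% lower. Of the 53 tested pathway genes 19 had an unadjusted p below 0.05, 16 of them higher and 3 lower, where over all tested genes 7.75% were higher and 8.31% lower. DESeq2 called 10 higher and 1 lower (3.49% and 4.94% over all genes), and limma voom called 11 higher and 0 lower (2.12% and 0.112%). Of the 12 remaining family ligands, receptors and inhibitors 9 were tested and 0 were called, with a median log2 fold change of 0.33. At an unadjusted p below 0.05 the list had 1 gene higher and 1 lower. They were Sigirr, an inhibitory receptor of the family (1.16 ± 0.54, adjusted p = 0.296), and Il1rapl1 (-1.65 ± 0.67, adjusted p = 0.234). DESeq2 and limma voom called 0 of that list. Sigirr stood at 63.2, 159, 180.3, 46.7 and 72.5 CPM in Tumor replicates 1 to 5, against 33.2, 52.7, 65.7, 24.0 and 58.5 CPM in WT replicates 1 to 5, which overlap. Over 9342 bases Il1rapl1 averaged 12.9 CPM in Tumor and 40.6 CPM in WT, highest in WT replicate 5 at 98.4 CPM. Per length these levels lie near the olfactory and vomeronasal floor, and the part of such background was not tested.

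Of 15 genes of MyD88 signalling 0 were called, with a median of 0.38, while 2 were higher at an unadjusted p below 0.05, DESeq2 called 2 higher and limma voom 0. The 2 with the smallest p were Peli1, a ubiquitin ligase that acts on IRAK proteins, at 1.75 ± 0.56 (edgeR adjusted p = 0.133), and Tab2, an adaptor of the kinase TAK1, at 1.81 ± 0.58 (adjusted p = 0.135). Both had every Tumor library above every WT library, as had 4.38% of all tested genes. Peli1 was at 140 to 365 CPM in Tumor against 35.4 to 95.0 CPM in WT, and Tab2 at 139 to 227 CPM in Tumor against 18.1 to 89.9 CPM in WT. The fold changes of both turned negative after pan-T scaling (-1.77 ± 0.78 and -1.61 ± 0.77). Of 9 inflammasome and processing genes 0 were called, with a median of -0.57. At an unadjusted p below 0.05 that list had 1 gene lower, while DESeq2 called 1 lower and limma voom called 0. Its smallest p values were those of the sensor genes Nlrp1b (-2.79 ± 0.93, adjusted p = 0.150) and Nlrp3 (1.75 ± 0.98, adjusted p = 0.384). Over 6305 bases Nlrp1b averaged 2.75 CPM in Tumor and 19.3 CPM in WT, highest in WT replicate 3 at 48.8 CPM. The olfactory and vomeronasal floor was 1.06 to 2.03 CPM per kilobase in Tumor and 1.22 to 4.199 in WT, highest in WT replicate 3. The part of such background in the Nlrp1b values was not tested. Nlrp3 averaged 11.9 CPM in Tumor and 3.54 CPM in WT. Casp1, whose product cleaves the IL-1 beta and IL-18 precursors, was at -0.85 ± 0.86 on the log2 scale (not called).

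The gene sets linked to each receptor held the 6 calls. Of 9 tissue repair Treg genes, 3 rose and the median was 2.36. At an unadjusted p below 0.05 there were 8 higher and 1 lower, while DESeq2 called 5 higher and limma voom 7. The gene with the opposite sign was Pparg, a transcription factor also made by epithelium, at -2.15 ± 0.93 (not called), with 1.24 to 17.9 CPM in Tumor and 2.82 to 97.7 CPM in WT, highest in WT replicates 1 and 2. The 3 that rose were Klrg1, a receptor of terminally differentiated cells (4.98 ± 0.89, adjusted p = 0.00929), Gata3, a transcription factor that drives ST2 expression (3.33 ± 0.74, 0.0283), and Areg, the growth factor amphiregulin (3.97 ± 0.93, 0.0363). Gata3 stood at 239, 259, 342, 232 and 169 CPM in Tumor replicates 1 to 5, against 7.72, 11.5, 24.4, 74.6 and 4.99 CPM in WT replicates 1 to 5. WT replicate 4 was the highest WT library for Gata3, as it was for Il1rl1. Klrg1 stood at 154 to 788 CPM in Tumor and 1.404 to 39.7 CPM in WT, and Areg at 676 to 1581 CPM in Tumor and 2.72 to 141 CPM in WT. Klrg1 stayed called after pan-T scaling (2.13 ± 0.75), and Gata3 (0.59 ± 0.71) and Areg (0.47 ± 0.99) did not pass. Of 6 tested type 17 genes 2 rose, Il17a (7.25 ± 0.93, adjusted p = 0.00341) and the chemokine receptor gene Ccr6 (3.38 ± 0.71, 0.0215). Il17a stood at 66.3, 20.3, 23.5, 213 and 128 CPM in Tumor replicates 1 to 5, against 0.468, 0.691, 0, 1.46 and 0 CPM in WT replicates 1 to 5, where it had at most 5 reads. Its fitted fold change therefore depends on the prior count. Ccr6 stood at 20.2 to 170 CPM in Tumor and 1.88 to 20.7 CPM in WT, which overlap. DESeq2 and limma voom each called 2 of that list. Its median was 1.05, and after pan-T scaling Il17a stayed called (4.40 ± 1.27) while Ccr6 was at 0.045 ± 0.90. Of 5 tested genes of the IL-12 and interferon gamma axis, which acts together with IL-18, 1 rose, the chemokine receptor gene Cxcr3 (4.01 ± 0.75, adjusted p = 0.0130), and the median was 1.94. At an unadjusted p below 0.05 that list had 3 genes higher, while DESeq2 called 1 and limma voom 2. Cxcr3 stood at 14.5 to 75.1 CPM in Tumor and 0.702 to 8.37 CPM in WT. It was at 1.07 ± 1.04 after pan-T scaling and did not pass.

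Genes with the profile most like a called member were sought among 12449 tested protein-coding genes that averaged 10 CPM or more, by the mean absolute difference of centred log2(CPM + 1) over the 10 libraries. Nearest to Il1r2 was Ltb4r1, a leukotriene B4 receptor gene (difference 0.28 log2 units), at 185 ± 96.3 CPM in Tumor and 9.08 ± 8.91 CPM in WT (SD, n = 5 each). Then came the chemokine receptor gene Ccr1 (0.28), at 204 ± 66.8 CPM in Tumor and 8.37 ± 7.58 CPM in WT, and Sit1, a T cell adaptor gene (0.44), at 128 ± 45.7 CPM in Tumor and 10.9 ± 12.4 CPM in WT. Nearest to Il18rap were Sytl3, Lmnb1 and Cyth4, with differences of 0.26, 0.29 and 0.30 log2 units. The nearness covers the difference between groups as well as the spread within them.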

How the data were processed

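Smart-seq2 RNA sequencing was deposited for 10 libraries, grouped by sample title into Tumor and WT, 5 each. The values that the authors deposited are raw read counts per gene, not normalized. Per the submitters' processing notes the build was mm10 and the tools were HISAT2 2.0.5 and featureCounts 1.5.0-p3. Annotation release, strand setting and multi-mapping rule are not given in the sources used here. The 10 single-sample files held the same counts as the series table, and all 45 library pairs differed by more than sampling noise (chi-square over its degrees of freedom at least 25.7). Reads carry no molecular identifiers. Gene lengths are those of the deposited table.

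The fits used edgeR 4.0.16 under R 4.3.3. Low genes were removed with filterByExpr (minimum count 10, minimum total 15), scaled by TMM and tested 2-sided by the robust quasi-likelihood F test with group as the only term, with Benjamini-Hochberg adjustment over all 21414 genes tested. A gene was called at an adjusted p below 0.05. The SE is the log2 fold change divided by the square root of F. The procedure was tested on simulated counts. These had a lower dispersion than the data (common dispersion 0.742) and lacked the WT differences in epithelial RNA and Gm10800 reads, so they do not show how it performs under them. Alternatives were DESeq2 1.42.0, limma 3.58.1 voom, other scalings and filters, the replicate number as a block, and libraries left out. One, a background in proportion to gene length subtracted, was chosen after seeing the data. In pan-T scaling the library size is the geometric mean of 14 T cell genes (count + 0.5). The level relative to them is log2 of CPM + 0.5 over their geometric mean.

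The members and lists were chosen with earlier results of these data known. Named genes were all members, up to 4 called genes per pathway list or the 2 with the smallest p, and the 3 genes most like each of the 2 called members with the smallest p. Casp1, the cluster neighbours and the 2 gene models inside Il1r2 were named after their values were seen. Sequences are from RefSeq (GRCm38.p6), matched by symbol for 9 of 9 members.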

Additional observations from a re-analysis of the deposited data

Results flagged for a closer look

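In 18 groups of 5 libraries (9 members in each of Tumor and WT), 2 had a library that stood apart from the rest by Dixon's test at the 95% level, where chance gives about 1 in 20. Il1rn in Tumor replicate 1 was at 131.5 CPM, with the next library at 84.4 CPM, a gap of 0.827 of the group's range. Il1r1 in Tumor replicate 4 was at 49.7 CPM, with the next library at 22.9 CPM, a gap of 0.766 of the range.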

How the results depend on the processing

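The 3 calls among the members stayed within 1.5 times under RLE, upper-quartile and no composition factors and both other filters, and with DESeq2, limma voom, the replicate block and without WT replicates 1 and 2. They became 5 (0 higher, 5 lower) with pan-T scaling, 6 (5 higher, 1 lower) without WT replicates 3 to 5 and 0 after subtracting a background in proportion to gene length, where 0 of all genes were called and 716 had an unadjusted p below 0.05. After that subtraction the log2 fold changes of Il1b, Il1r2 and Il18rap were 3.84, 3.67 and 3.38. Leaving out 1 library gave 0 to 3 member calls, with 0 without Tumor replicate 2, Tumor replicate 3 or WT replicate 1, and 1 without Tumor replicate 1 or 4. It gave 2 to 8 pathway calls and 65 to 417 calls over all genes. The 340 calls over all genes became 19673 with pan-T scaling, 820 with no filter, 1637 with DESeq2, 1993 without WT replicates 1 and 2, 1325 without WT replicates 3 to 5 and 141 with the replicate block. Of these calls 293 were higher and 47 lower, against 18 and 19655 with pan-T scaling, 479 and 341 with no filter, 677 and 960 with DESeq2, and 696 and 629 without WT replicates 3 to 5. The 6 pathway calls became 37 with pan-T scaling, 11 with DESeq2, 11 with limma voom, 15 without WT replicates 3 to 5 and 0 after the subtraction.

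Of 198 member values under alternatives 10 changed sign. With pan-T scaling Il1rn was at -2.29, Il1r1 at -3.12, Il18r1 at -1.95 and Il18rap at -0.83. Il1r1 was at -0.089 with the filter of 10 CPM in 5 libraries, -0.049 without Tumor replicate 4 and -0.13 after the subtraction. Il1rap was at 0.11 without WT replicates 3 to 5. Il18 was at 2.79 without WT replicates 1 and 2 and at 0.62 with the replicate block. The cause was not tested. Same-numbered libraries deviated together with correlations of -0.14 to 0.040, and 0 libraries correlated best with their own number. The labels state no pairing by number. The correlations cannot exclude one, because the WT libraries differ widely in epithelial RNA and Gm10800 reads. With the block 2 members were called, Il1b and Il1r2, and 5 pathway genes. Counting error is largest for the lowest values. Il1b had 1 read in WT replicate 2, although that library had the most counts of all 10, and Il1r2 and Il18 had 3 reads each in WT replicate 3, the library with the fewest.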
